A study of Homo sapiens with 6 samples.

Results

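The death ligand TRAIL, the death receptors of TRAIL and FAS, and the proteins that start extrinsic apoptosis were followed through 10 genes in HT1080 cells, an established human fibrosarcoma line. The genes were TNFSF10, TNFRSF10A, TNFRSF10B, TNFRSF10C, TNFRSF10D, FAS, FADD, CASP8, CFLAR and XAF1, chosen by name for their roles, and all 10 were found among the 62710 genes of the FPKM table. Cells were left untreated (3 libraries) or were given 20 ng/mL IFNβ for 24 h (3 libraries). The labels name no other agent and no genetic change. The labels name human IFNβ for these libraries, whereas the study's RNA sequencing methods name the mouse protein. The line is a single cell line, and the labels do not say whether the libraries came from separate cultures. The study's methods describe its in vitro work in general as done on independent biological replicates. If the libraries did share a culture, the p-values measure technical spread only. Group means are given ± S.D. over the 3 libraries of a group.

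Extrinsic apoptosis starts outside the cell. TRAIL (TNFSF10) binds the death receptors DR4 (TNFRSF10A) and DR5 (TNFRSF10B), or the decoys DcR1 (TNFRSF10C) and DcR2 (TNFRSF10D), which lack a working death domain, and FAS binds FAS ligand. A clustered death receptor recruits the adaptor FADD and with it procaspase-8 (CASP8), which is cleaved and in turn activates the executioner caspases, unless the caspase-8 relative c-FLIP (CFLAR) takes its place. XAF1 binds XIAP, an inhibitor of caspases, and opposes it. TNFSF10 and XAF1 are known as interferon-stimulated genes.

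The FPKM of each gene came in whole multiples of 1 fragment, which gave back the number of fragments that each library had been divided by. This number lay between 22848104 and 32915500, so that 1 fragment on a gene of 1 kb was worth 0.0304 to 0.0438 FPKM. Of the 8 mesenchymal markers, 7 were at 1 FPKM or more in every library, with a summed level of 1096 to 1166 FPKM in untreated and 1169 to 1197 FPKM in IFNβ-treated cells, and THY1 was under 0.1 FPKM. All 6 leukocyte markers stayed under 0.1 FPKM in every library, with PTPRC, the pan-leukocyte marker, at or near 0. Of the 5 epithelial markers, EPCAM, CDH1 and KRT19 were under 0.1 FPKM, whereas KRT8 and KRT18 were expressed and raised the summed level from between 79.4 and 81.6 FPKM to between 133.7 and 139.5 FPKM, a change whose part in the results was not tested. Of the 3 endothelial markers, CDH5 and VWF were under 0.1 FPKM and the list summed to at most 0.441 FPKM.

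The RNA of the ligand TRAIL rose from near 0. TNFSF10 (ENSG00000121858, chromosome 3, 172505508 to 172523507 on GRCh38, minus strand) had 0.0254, 0.0196 and 0 FPKM in the untreated libraries, and 12.4, 12.6 and 12.8 FPKM after IFNβ. Every treated library stood far above every untreated one. The untreated values rest on 2, 2 and 0 fragments, against 1317, 1083 and 1277 fragments after IFNβ. The ratio of the summed fragments per sequenced fragment was 928, with an exact 95% interval from 362 to 3406 that covers counting error only. On the log2(FPKM + 0.1) scale used for the tests the difference was 6.80 ± 0.11 (SE; limma adjusted p = 1.5e-07). This size follows the added 0.1, and was 3.75 with 1 and 9.17 with 0.01 in its place.

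XAF1 behaved in the same manner. XAF1 (ENSG00000132530, chromosome 17, 6755447 to 6775647, plus strand) was listed at 0.00662, 0 and 0 FPKM in untreated cells, that is at 1 fragment in all, and at 9.72, 8.99 and 9.27 FPKM after IFNβ. The groups did not overlap. With 5237 fragments after IFNβ the ratio was 5284, and its exact 95% interval ran from 948 to 208800 because a single untreated fragment stands below it. The log2 fold change was 6.53 ± 0.09 (SE; limma adjusted p = 9.5e-08), and 3.36 or 9.62 with 1 or 0.01 added. On the other strand, PRAL overlaps 38.3% of the exon bases of XAF1 and was listed at 0 in untreated cells and at a mean of 0.276 FPKM after IFNβ. Whether the counting used strand is not given in the sources used here, so fragments of both genes cannot be told apart.

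**Figure D1:**
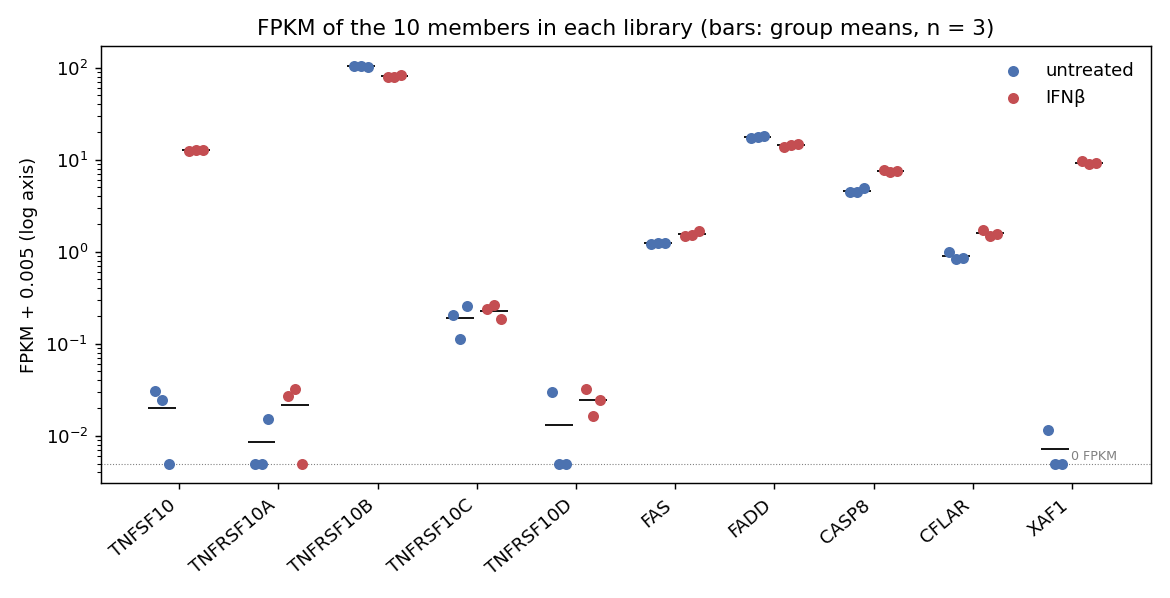
FPKM of the 10 members in each library on a log axis with 0.005 added so that 0 can be drawn, with untreated libraries in blue, IFNβ-treated libraries in red and group means as bars. TNFSF10 and XAF1 pass from at most 0.0254 FPKM to at least 8.99 FPKM, whereas TNFRSF10B lies between 79.2 and 104.9 FPKM in every library and the other 3 TRAIL receptors stay at 0.259 FPKM or less.

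Among the 20716 genes whose mean reached 0.1 FPKM, which were all tested together, TNFSF10 ranked 16 and XAF1 ranked 19 by log2 fold change. Both entered the test only through their level after IFNβ. The protein-coding genes whose log2 levels over the 6 libraries lay closest to those of TNFSF10 were SLC15A3 (Euclidean distance 0.47), XAF1 (0.83) and CXCL10 (1.37), of 12760 compared. For XAF1 they were HSH2D (0.70), TNFSF10 (0.83) and SLC15A3 (1.11). SLC15A3 had 14.3 ± 0.507 FPKM after IFNβ, and HSH2D had 7.04 ± 0.183 FPKM.

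For 3 of the members that rose, 1 promoter each is shown because type I interferon acts through factors that bind the interferon-stimulated response element (ISRE) or the gamma-activated site (GAS). The sequences are those of RefSeq on GRCh38.p14, from 250 bases before to 30 bases after a transcript start, and capitals mark matches to the ISRE core (GAAA, any 2 bases and GAAA) or the GAS core TTCNNNGAA on either strand.
TNFSF10 (chr3:172523401-172523680, - strand): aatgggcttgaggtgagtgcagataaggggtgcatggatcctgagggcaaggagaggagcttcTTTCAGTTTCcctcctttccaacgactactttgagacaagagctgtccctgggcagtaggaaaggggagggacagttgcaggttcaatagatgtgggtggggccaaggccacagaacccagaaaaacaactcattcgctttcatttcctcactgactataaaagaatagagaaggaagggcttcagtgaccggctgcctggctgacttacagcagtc
XAF1 (chr17:6755197-6755476, + strand): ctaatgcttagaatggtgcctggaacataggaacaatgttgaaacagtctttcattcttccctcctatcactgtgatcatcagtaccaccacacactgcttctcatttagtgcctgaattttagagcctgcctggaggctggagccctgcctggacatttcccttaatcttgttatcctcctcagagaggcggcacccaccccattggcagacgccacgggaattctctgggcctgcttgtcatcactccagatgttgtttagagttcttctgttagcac
CASP8 (chr2:201233213-201233492, + strand): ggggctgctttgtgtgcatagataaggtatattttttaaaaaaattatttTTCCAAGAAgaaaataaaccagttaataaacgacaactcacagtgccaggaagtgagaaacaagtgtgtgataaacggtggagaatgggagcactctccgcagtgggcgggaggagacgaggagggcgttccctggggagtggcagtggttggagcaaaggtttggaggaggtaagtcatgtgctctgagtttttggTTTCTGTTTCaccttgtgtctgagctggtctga
The promoter of TNFSF10 held the ISRE core, on the opposite strand, from base -187 to base -178 counted from the start. The printed promoter of CASP8, of 3 given for this gene, held the ISRE core across the start, from base -3 to base 7. It also held the GAS core from base -200 to base -192, and the other CASP8 promoters held neither. Neither core was found in the 2 promoters of XAF1, the 3 of FAS or the 4 of CFLAR. Over all 14 promoters that the table gives for 6 of the members, 2 held the ISRE core and 1 the GAS core, against 3.57% and 7.66% of all 35116 promoters of the table, searched over the same length. A match of letters is a description and was not tested as a binding site.

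Of the 4 TRAIL receptors, which lie within 205.0 kb of chromosome 8 in the order TNFRSF10B, TNFRSF10C, TNFRSF10D and TNFRSF10A, TNFRSF10B made up nearly all of the RNA. TNFRSF10B (ENSG00000120889) had 103.7, 104.9 and 102.7 FPKM in untreated and 79.2, 79.6 and 83.6 FPKM in IFNβ-treated cells. All treated libraries lay below all untreated ones, and the mean fell from 103.8 ± 1.14 to 80.8 ± 2.42 FPKM. The log2 fold change was -0.36 (95% interval -0.42 to -0.30, limma adjusted p = 0.00012), and 16 other settings gave values from -0.39 to -0.35. In RNA from whole cultures, fewer cells of a kind and less RNA per cell cannot be told apart.

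DR4 was hardly detected. TNFRSF10A had 0, 0 and 1 fragments in untreated and 2, 2 and 0 fragments in IFNβ-treated cells, that is at most 0.0274 FPKM, which is less than 3 fragments are worth. TNFRSF10D was as low, with 2, 0 and 0 fragments against 3, 1 and 2. Both were under the filter of the fit, and exact permutation tests of the FPKM, two-sided, gave p = 0.4 and p = 0.3, where 3 against 3 libraries cannot go below 0.1. A difference in either gene was not detectable at this depth. TNFRSF10C had 0.198, 0.109 and 0.256 FPKM in untreated and 0.231, 0.259 and 0.179 FPKM in IFNβ-treated cells, or 5 to 13 fragments per library, and the groups overlapped. Its log2 fold change of 0.19 did not pass (95% interval -0.47 to 0.86, limma adjusted p = 0.65), and 485 of its 1868 exon bases are shared with AC107959.4, a noncoding RNA gene on the same strand with a mean of 2.03 FPKM in untreated and 2.42 FPKM in treated cells. The decoys together made 0.104% to 0.248% of the FPKM of the 4 receptors in untreated libraries and 0.237% to 0.339% after IFNβ.

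Ligand and receptor RNA came closer in level. The FPKM of TNFSF10 was at most 0.000245 of that of TNFRSF10B within an untreated library, and 0.157, 0.158 and 0.154 of it in the IFNβ-treated libraries.

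FAS (ENSG00000026103, chromosome 10, 88990582 to 89015785, plus strand) had 1.21, 1.25 and 1.25 FPKM in untreated and 1.47, 1.53 and 1.68 FPKM in IFNβ-treated cells. The groups did not overlap, and the log2 fold change was 0.31 (95% interval 0.12 to 0.50, limma adjusted p = 0.027). The call was not stable. It was lost when any library except IFNβ replicate 1 was left out, with adjusted p-values of 0.063 to 0.085, with quantile normalization (0.086) and with the replicate number as a block (0.060). ACTA2, on the other strand, shares 8.93% of the exon bases of FAS and had a mean of 1.93 FPKM in untreated and 2.84 FPKM in treated cells, and its part in the values of FAS was not tested. The ligand of FAS was near 0, since FASLG had 0, 0 and 0.0673 FPKM against 0.0180, 0.0222 and 0 FPKM.

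FADD, the adaptor shared by both receptor systems, moved down. FADD (ENSG00000168040, chromosome 11, 70203163 to 70207390, plus strand) had 17.04, 17.5 and 18.3 FPKM in untreated and 13.9, 14.4 and 14.8 FPKM in IFNβ-treated cells, with no overlap. Its log2 fold change was -0.29 (95% interval -0.38 to -0.20, limma adjusted p = 0.0014). The antisense gene AP000879.1 covers 54.9% of its exon bases and was listed at 0 in every library.

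CASP8 and its inhibitor rose together. CASP8 (ENSG00000064012, chromosome 2, 201233443 to 201287711, plus strand), with a promoter printed above, had 4.43, 4.50 and 4.92 FPKM in untreated and 7.72, 7.35 and 7.56 FPKM in IFNβ-treated cells. Its log2 fold change was 0.70 (95% interval 0.58 to 0.82, limma adjusted p = 0.00012). CFLAR (ENSG00000003402, chromosome 2, 201116104 to 201176687, plus strand) had 0.978, 0.832 and 0.845 FPKM against 1.703, 1.49 and 1.57 FPKM, a log2 fold change of 0.78 (95% interval 0.54 to 1.02, limma adjusted p = 0.0016). For both genes the lowest treated library lay above the highest untreated one. The ratio of CFLAR to CASP8 FPKM within a library was 0.221, 0.185 and 0.172 in untreated and 0.221, 0.203 and 0.207 in IFNβ-treated cells. These ranges overlapped, so a shift of the balance between them was not resolved. On the other strand, CFLAR-AS1 shares 3.45% of the exon bases of CFLAR and had a mean of 0.175 FPKM in untreated and 0.360 FPKM in treated cells. IMPDH1P10, also on the other strand, shares 6.6% and had 0.0328 and 0.0554 FPKM. AC007283.1, on the same strand, was listed at 0. The part of these genes in the values of CFLAR was not tested.

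Read by direction, 5 of the 8 members tested were higher and 2 were lower after IFNβ at a limma adjusted p-value under 0.05, where 32.7% of all genes tested passed, 15.2% higher and 17.5% lower. The 5 include TNFSF10 and XAF1, which were tested only because of their level after IFNβ. Apart from these, FAS, CASP8 and CFLAR were higher, and TNFRSF10B and FADD were lower. TNFSF10 and XAF1 also reached the log2 fold change of 1 that was required of differentially expressed genes (DEGs), as did 4.22% of all genes tested, 3.49% higher and 0.739% lower. The groups did not overlap for 7 of the 8, 5 of them higher, against 46.6% of all genes tested, 22.3% higher and 24.3% lower. The median log2 fold change was 0.50 over the 8 members and 0.00 over all genes tested. Because TNFSF10 and XAF1 were tested only through the treated group, they raise this median and both counts of higher members. Apart from TNFSF10 and XAF1 the changes were small, and 12.0% of all genes tested had a larger absolute log2 fold change than CFLAR and 14.1% a larger one than CASP8.

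CFLAR, CASP10 and CASP8 lie next to each other on the plus strand within 171.6 kb of chromosome 2, with no other protein-coding gene between them, and all 3 were higher after IFNβ. CASP10, the closest relative of CASP8 and also recruited by FADD, had 0.515, 0.453 and 0.613 FPKM in untreated and 1.39, 1.44 and 1.33 FPKM in IFNβ-treated cells. With a log2 fold change of 1.25 (95% interval 0.95 to 1.56, limma adjusted p = 0.00055) it was a DEG. The genes around them, chosen for their position after their values had been seen, did not share one direction. NDUFB3, on the CFLAR side, had a log2 fold change of -0.08 (95% interval -0.35 to 0.19), and HYCC2 beyond it had 0.56. On the CASP8 side FLACC1 was under the filter, TRAK2 had -0.53 and STRADB -0.32.

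**Figure D2:**
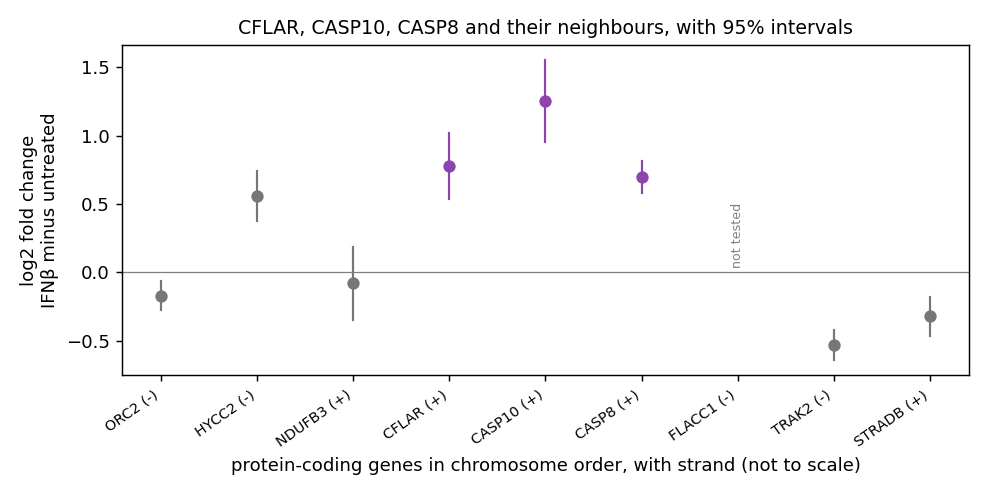
Log2 fold change with its 95% interval for CFLAR, CASP10 and CASP8 (purple) and the 3 protein-coding genes on either side (grey), in chromosome order and not to scale. CFLAR (0.78), CASP10 (1.25) and CASP8 (0.70) are higher, whereas ORC2 (-0.17), TRAK2 (-0.53) and STRADB (-0.32) are lower. HYCC2 (0.56) is higher as well, NDUFB3 (-0.08) did not pass and FLACC1 was not tested.

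Levels of different genes depend on the length each was divided by. The lengths implied by the values were 0.971 to 1.0 times the exon length of GENCODE release 29 for TNFSF10, TNFRSF10B, CASP8, CFLAR and XAF1, 0.928 times for FADD and 0.827 times for TNFRSF10C. Of the members, FAS stood apart, since its fragments had been divided by 29313 bases, the shortest length that gives whole fragments in every library. That is 6.89 times its 4253 exon bases in release 29. Lengths also differed for other genes named here, with RIPK1 at 2.88, RBCK1 at 2.67 and PARP1 at 2.57 times the release 29 length. With the release 29 length FAS had 8.54 ± 0.164 FPKM in untreated and 10.8 ± 0.766 FPKM in IFNβ-treated cells, in place of 1.24 ± 0.0237 and 1.56 ± 0.111 FPKM. This takes every fragment of FAS to lie within those 4253 bases, which was not tested, and otherwise overstates its level. For CFLAR both lengths were similar, at 22478 and 22529 bases, although its principal transcripts have a median of 8400 bases. In the deposited FPKM after IFNβ the order was TNFRSF10B, FADD, TNFSF10, XAF1, CASP8, CFLAR, FAS and TNFRSF10C, in which CFLAR and FAS overlapped. With principal transcript lengths it was TNFRSF10B (97.6 FPKM), CASP8 (33.5), TNFSF10 (22.2), FAS (17.8), XAF1 (17.03), FADD (13.4), CFLAR (4.25) and TNFRSF10C (0.201), and FAS and XAF1 differed by less than the S.D. of FAS. That order takes all fragments of a gene to lie within its principal transcripts, which was not tested. The length of a gene cancels in the ratio of its own FPKM between libraries.

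A list of 49 further genes of extrinsic apoptosis was read alongside, of which 41 were tested. Of these, 15 were higher and 7 lower at an adjusted p-value under 0.05, 2 of the higher ones were DEGs, and the median log2 fold change was 0.14. Over all genes tested, 15.2% were higher, 17.5% were lower and 3.49% were higher DEGs. The 19 genes of the list that did not pass had log2 fold changes between -0.40 and 0.53.

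None of the 6 other death ligands reached the filter. TNF was listed at 0 without IFNβ and at 0.0387, 0 and 0.0825 FPKM after IFNβ. The latter rest on 1, 0 and 2 fragments, and the groups overlapped. Of 7 other death and decoy receptors, 6 were tested and NGFR, a receptor of neurotrophins that carries a death domain, was the one that passed. Of all genes tested, 32.7% passed. NGFR had 0.693 ± 0.0437 FPKM in untreated and 1.33 ± 0.0923 FPKM in IFNβ-treated cells, and its log2 fold change was 0.84 (limma adjusted p = 0.0011). TNFRSF6B, a soluble decoy of FAS ligand, was listed at 0 in every library.

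Of the 17 adaptors, kinases and regulators of the receptor complexes, 8 were higher and 1 was lower, against 15.2% and 17.5% of all genes tested. RBCK1, a subunit of the linear ubiquitin ligase LUBAC, rose from 8.03 ± 0.282 to 15.9 ± 0.651 FPKM, and its log2 fold change of 0.98 stayed just under the DEG threshold. SHARPIN, another subunit of LUBAC, rose with a log2 fold change of 0.27. RNF31, named because it is the remaining subunit, did not pass (log2 fold change 0.525, limma adjusted p = 0.069). Its mean was 0.203 FPKM in untreated and 0.337 FPKM in treated cells. TRADD, the adaptor of the TNF receptor, had a log2 fold change of 0.66, RIPK1, the kinase it recruits, of 0.34, and TRAF1 of 0.42. TRAF3 was the lower one, from 7.68 ± 0.147 to 6.52 ± 0.0479 FPKM.

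The genes downstream of the initiator caspases and of the mitochondrial arm went in both directions, with 3 of 13 genes higher and 5 lower. Of all genes tested, 15.2% were higher and 17.5% lower. BID, which caspase-8 cleaves to reach the mitochondria, fell from 12.1 ± 0.0622 to 9.25 ± 0.262 FPKM, and CYCS, the gene of cytochrome c, had a log2 fold change of -0.18. The caspase substrates DFFA and PARP1 were lower as well, with log2 fold changes of -0.54 and -0.27.

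Of the 6 inhibitors of apoptosis, 5 were tested. Of these, 3 were higher and 1 was lower, against 15.2% and 17.5% of all genes tested. XIAP did not pass. It had 8.24, 7.56 and 8.30 FPKM in untreated and 8.03, 7.72 and 7.80 FPKM in IFNβ-treated cells, with a log2 fold change of -0.03 (95% interval -0.14 to 0.07, limma adjusted p = 0.64). The ratio of XAF1 to XIAP FPKM within a library went from at most 0.000803 to 1.21, 1.17 and 1.19. BIRC5 (survivin) fell from 51.8 ± 1.11 to 36.6 ± 0.276 FPKM, which is -0.50 on the log2 scale (limma adjusted p = 1.5e-05). BIRC3, named after its value had been seen because it lay beside the threshold, was higher, with 0.451 ± 0.0339 against 0.999 ± 0.0591 FPKM. Its log2 fold change was 0.996 (limma adjusted p = 0.0011).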

How the data were processed

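RNA of 3 untreated and 3 IFNβ-treated HT1080 libraries was sequenced as paired reads of 150 bp. The submitters' processing notes name fastp, HISAT2, StringTie and GRCh38, without roles, and the study's methods name DESeq2. The authors deposited FPKM, with 1 value per Ensembl gene and library, not pooled. The annotation, gene lengths and strandedness are not given in the sources used here, and 4436 gene IDs are not in GENCODE release 29, from which locations were taken.

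Because a count test does not suit FPKM, both groups of libraries entered limma 3.58.1 under R 4.3.3 (lmFit, eBayes with trend) as log2(FPKM + 0.1), over all 20716 genes whose mean reached 0.1 FPKM, with Benjamini-Hochberg adjustment over all of them and no covariate. DEGs had an adjusted p-value under 0.05 and changed by at least 1 on the log2 scale. Fold changes on this scale understate the change of low genes.

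The divisor of a library was read off as the commonest result when each gene was taken to hold 1 fragment at its release 29 length. A gene's fragments were its whole multiples with that length, or else the smallest whole numbers (tolerance 1e-06). They were found for 35302 of 35303 genes above 0 and summed to 99.73% of the divisors. The exact intervals of fragment ratios cover counting error only, whereas those of log2 fold changes come from the limma fit. Pairs of libraries within a group differed by more than counting noise (chi-square per degree of freedom 1.76 to 3.16).

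The members and lists were chosen with earlier results of these data known. Genes named are the members, direct partners, DEGs of the list, and the 10 other list genes with the smallest adjusted p-values at a mean FPKM of at least 1, with the closest genes to TNFSF10 and XAF1 and genes whose exons overlap a member's. The steps were tested on simulated data. All other steps ran in Python 3.11.15 with scipy 1.17.1, numpy 2.4.6 and pandas 2.3.3. Alternatives were other pseudocounts, filters, scalings and thresholds, eBayes without trend, a replicate block, limma-voom on recovered fragments and each library left out. A protein motif that had been planned was not analysed here, and some genes of the list are counted but not reported here.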

Additional observations from a re-analysis of the deposited data

How the results depend on the processing

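Of the 10 members, the same 2 (TNFSF10 and XAF1) were DEGs with each library left out and under all other settings, except without the fold threshold, where 7 passed. With each library left out, 6 to 7 members had an adjusted p-value under 0.05 and 2 to 3 genes of the further list were DEGs. That list held 2 DEGs, CASP10 among them. With a mean FPKM of at least 1 it held 1, because CASP10 was no longer tested, with a pseudocount of 1 it held 0, and without the fold threshold it held 22. TNFRSF10C, on 5 to 13 fragments per library, had log2 fold changes from -0.019 (without untreated replicate 2) to 0.364 (without untreated replicate 3), against 0.19. Of the members and partners tested, FAS was the one that lost an adjusted p-value under 0.05 in any of 16 settings, in 7 of them. The cause was not tested. Deviations from the group means correlated by 0.014, 0.023 and 0.031 between same-numbered libraries, and by -0.029 to 0.006 between the others. Such small values cannot settle whether the library numbers pair the samples. With the replicate number as a block, 6 members passed, 2 members and 2 further genes were DEGs, and the log2 fold change of FAS was 0.31 (adjusted p = 0.060). Of all genes, 875 were DEGs, against 425 when the mean had to reach 1 FPKM, 304 with a pseudocount of 1 and 6778 without the fold threshold. Over all genes, the median difference moved to -0.06 at most under another scaling. Depth limits TNFRSF10A, TNFRSF10C, TNFRSF10D and the untreated levels of TNFSF10 and XAF1.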
